A study of Mus musculus with 6 samples.

Results

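The NF-kB genes described here, Nfkbia, Nfkbiz, Tnfaip3, Tnf, Nfkb1, Nfkb2, Rel, Relb, Bcl3 and Birc3, were followed through the cell classes of mouse dorsal skin in single-cell RNA sequencing libraries. They were chosen by symbol as subunits and feedback genes of the pathway, and they are 10 of the 31053 genes in the count tables. The skin came from female C57BL/6J mice aged 8 to 10 weeks. Sham mice were untreated (2 libraries), the backs of IMQ mice were shaved and given 62.5 mg of 5% imiquimod cream daily for 4 days (2 libraries), and IMQ+SHP099 mice had the cream and, by gavage at 10 mg/kg daily for 4 days, SHP099 hydrochloride, which blocks the phosphatase SHP2 at an allosteric site (2 libraries). The labels describe the inhibitor as given for 4 further days and do not say whether these ran beside the cream or after it, so the 2 treated groups may also differ in time since the cream. Imiquimod activates the receptor TLR7, and the cream is a standard means of raising a psoriasis-like inflammation. Mice were killed 1 day after the last dose, and each library pooled the skin of several mice, so a p-value here measures the spread between pooled libraries. All labels carry the same model name, the untreated samples included, and no SHP099 group without imiquimod was analysed here.

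NF-kB is a family of dimeric transcription factors that waits in the cytoplasm, bound by IkB proteins, until cytokine or Toll-like receptors start a kinase complex that has IkB destroyed. The freed dimers turn on inflammatory genes and also the genes of their own brakes, of which IkB-alpha (Nfkbia) and the ubiquitin-editing protein A20 (Tnfaip3) are the best known. In skin the pathway is active in keratinocytes and in immune cells, and TNF, both a product and an inducer of NF-kB, is a treatment target in psoriasis.

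The unique molecular identifiers (UMIs) of each gene were summed over the cells of a class in a library and are given as UMIs per 1000000 UMIs (UPM) of that class. Classes were gated on lists of marker genes that held no gene of the set, and a class name stands for its gate. The libraries held 53913865 to 188283327 UMIs in 7567 to 10746 barcodes, of which 7382 to 10293 passed the filters and 88.6% to 94.7% of those fell in a class. Library 1 of IMQ+SHP099 stood apart by its depth, with a median of 18263.5 UMIs per kept cell against 5645 to 8854 in the others. Any pair of libraries shared 12 to 30 barcodes, at most 0.391% of the smaller one. No marker of another class stood among the top 10 genes of any class, and own markers made up 3 to 6 of them except in neutrophils (1) and conventional dendritic cells (2). The endothelial gate was led by the lymphatic genes Ccl21a and Mmrn1, and the monocyte gate held the immunoglobulin gene Igkc among its top genes. In the gate of conventional dendritic cells the own markers were Mgl2 and Cd209a, while its markers Xcr1, Clec9a, Wdfy4 and Flt3 were not among the top 10. Keratins reached 0.14% to 3.32% of their keratinocyte level in other classes, a measure of free RNA. Collagens in mural cells were at 2.74% and 3.06% of their fibroblast level in Sham and 8.95% to 11.2% in the treated libraries. In the remaining classes they were at 0.042% to 0.87%. S100a8 and S100a9 summed in fibroblasts to 1.07 and 1.54 UPM in Sham and 171 to 509 UPM in the treated libraries. How much of these was free RNA was not tested. Values below run in the order Sham 1, Sham 2, IMQ 1, IMQ 2, IMQ+SHP099 1 and IMQ+SHP099 2 unless stated otherwise.

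The stretches just upstream of the transcription start are shown for the genes that moved together in keratinocytes, Tnf, Bcl3 and Birc3, and for the feedback genes Nfkbia and Tnfaip3. Each is the 250 bases before a RefSeq start, 5′ to 3′ in the direction of transcription (build GRCm38.p6, all on the minus strand), with matches to the 10-base kappa B consensus on either strand in capitals.
Nfkbia, chr12:55492648-55492897: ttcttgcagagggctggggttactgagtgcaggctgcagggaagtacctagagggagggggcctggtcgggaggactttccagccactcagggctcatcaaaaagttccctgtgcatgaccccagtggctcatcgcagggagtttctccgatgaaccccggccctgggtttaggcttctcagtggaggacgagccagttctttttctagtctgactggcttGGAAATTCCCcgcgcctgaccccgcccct
Tnfaip3, chr10:19015411-19015660: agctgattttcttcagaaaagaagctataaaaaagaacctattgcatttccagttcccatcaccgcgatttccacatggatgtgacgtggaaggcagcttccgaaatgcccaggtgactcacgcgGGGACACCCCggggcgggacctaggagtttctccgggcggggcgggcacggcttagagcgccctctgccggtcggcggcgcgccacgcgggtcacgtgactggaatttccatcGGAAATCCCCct
Tnf, chr17:35202008-35202257: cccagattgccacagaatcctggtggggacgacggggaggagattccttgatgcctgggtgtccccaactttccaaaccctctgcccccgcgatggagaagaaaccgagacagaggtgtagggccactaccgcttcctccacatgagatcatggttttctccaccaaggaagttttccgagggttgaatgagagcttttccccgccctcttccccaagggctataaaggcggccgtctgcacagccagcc
Bcl3, chr7:19822756-19823005: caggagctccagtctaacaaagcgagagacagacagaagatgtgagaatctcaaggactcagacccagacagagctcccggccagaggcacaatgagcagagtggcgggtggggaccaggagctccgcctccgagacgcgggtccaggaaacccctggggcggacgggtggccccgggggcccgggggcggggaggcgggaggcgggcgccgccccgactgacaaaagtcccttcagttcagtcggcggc
Birc3, chr9:7873171-7873420: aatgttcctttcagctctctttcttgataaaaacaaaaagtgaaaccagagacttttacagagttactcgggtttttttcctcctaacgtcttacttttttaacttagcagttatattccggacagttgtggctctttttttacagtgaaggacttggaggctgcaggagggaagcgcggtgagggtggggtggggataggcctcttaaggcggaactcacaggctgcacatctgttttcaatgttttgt
The Nfkbia window held 1 match, from 29 to 20 bases before the start, and the Tnfaip3 window held 2, at 125 to 116 and at 12 to 3 bases before it. No match lay in the windows of Tnf, Bcl3 and Birc3, which says only that these letters are absent from those 250 bases. Windows were found for 7 of the 10 genes, and 4 of them held a match (Nfkbia, Tnfaip3, Nfkb2 and Rel). The same search found a match in 4.46% of 27025 genes. Nfkbiz, Nfkb1 and Relb had no window in the table. Matches are descriptions of the sequence and not evidence of binding.

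The subunit genes are Nfkb1 (ENSMUSG00000028163, GRCm38 chr3:135584655-135691547, minus strand), Nfkb2 (ENSMUSG00000025225, chr19:46304320-46312385, plus strand), Rel (ENSMUSG00000020275, chr11:23736847-23770970, minus strand) and Relb (ENSMUSG00000002983, chr7:19606217-19629438, minus strand). Nfkb1 encodes p105, the precursor of p50, and Nfkb2 encodes p100, the precursor of p52, the partner of RelB in the non-canonical branch. Rel encodes c-Rel, the subunit best known from lymphoid and antigen-presenting cells. The IkB-related genes are Nfkbia (ENSMUSG00000021025, chr12:55489410-55492647, minus strand), Nfkbiz (ENSMUSG00000035356, chr16:55811375-55838899, minus strand) for the nuclear IkB-zeta, a co-activator downstream of IL-17, and Bcl3 (ENSMUSG00000053175, chr7:19808462-19822770, minus strand) for a nuclear IkB that binds p50 and p52. The remaining genes are Tnfaip3 (ENSMUSG00000019850, chr10:19000910-19015657, minus strand), Birc3 (ENSMUSG00000032000, chr9:7848699-7873186, minus strand), which encodes the ubiquitin ligase cIAP2, and Tnf itself (ENSMUSG00000024401, chr17:35199381-35202007, minus strand).

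Before any comparison of treatments, the classes differed widely in these genes. Each gene's order is over libraries with at least 10 cells of a class, 6 libraries except for neutrophils (3), mast cells and basophils (4, of Sham and IMQ) and conventional dendritic cells (2, both of Sham). Rel had its highest median in conventional dendritic cells, at 563 UPM (384 to 741), followed by Langerhans cells, the antigen-presenting cells of the epidermis, at 478 UPM (443 to 691), and these ranges overlapped. Monocytes followed at 246 UPM with libraries from 69.6 to 448, so their range met that of Langerhans cells, while mural cells, the pericytes and smooth muscle around vessels, were lowest at 14.6 UPM (7.37 to 35.6). Nfkb1 ran from 267 UPM in conventional dendritic cells down to 48.6 UPM in mural cells, but within Sham alone its mean was higher in mast cells and basophils (373 UPM) and in T cells (348 UPM) than in the dendritic cells. Relb ran from 45.9 UPM in T cells down to 11.5 UPM (7.90 to 25.0) in keratinocytes. Nfkb2 was highest in neutrophils at 56.7 UPM and low in keratinocytes at 16.7 UPM, and the median of mast cells and basophils was 0. With at most 44 cells of that class in a library, a count of 0 there allows up to 3 UMIs.

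Tnf showed the widest spread of levels over the classes. Its median was 611 UPM in mast cells and basophils (492 to 1139), 361 UPM in neutrophils (328 to 792), 343 UPM in T cells (96.9 to 447), 267 UPM in monocytes (109 to 482) and 259 UPM in Langerhans cells (98.8 to 601). C1q macrophages followed at 179 UPM (35.2 to 366). Every library of mast cells and basophils lay above those of T cells, monocytes and C1q macrophages, while the remaining pairs among these 6 classes overlapped. The 2 libraries of conventional dendritic cells had 6.30 and 164 UPM, the lower of them within the range of keratinocytes. Keratinocytes had 14.5 UPM (5.59 to 17.9), below every library of the 6 classes named first, and fibroblasts (2.97 UPM), endothelial cells (2.86 UPM) and mural cells (0.671 UPM) were lower still. In mural cells a library held 0 to 5 UMIs of Tnf, within or near the 3 UMIs that a count of 0 allows.

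Among the feedback genes, Tnfaip3 had its highest median in T cells, at 1501 UPM (1032 to 1923), overlapping with mast cells and basophils (743 to 1199 UPM) but with no library of another class. Nfkbia stood highest in neutrophils (3524 UPM), next to mast cells and basophils, T cells and monocytes, with keratinocytes at 1678 UPM and mural cells lowest at 422 UPM (268 to 642). Nfkbiz was highest in mast cells and basophils (1346 UPM) and in neutrophils (1079 UPM), then in monocytes (678 UPM). Bcl3 was highest in neutrophils (112 UPM) and monocytes (106 UPM), which overlapped, and Birc3 in neutrophils (157 UPM).

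**Figure D1:**
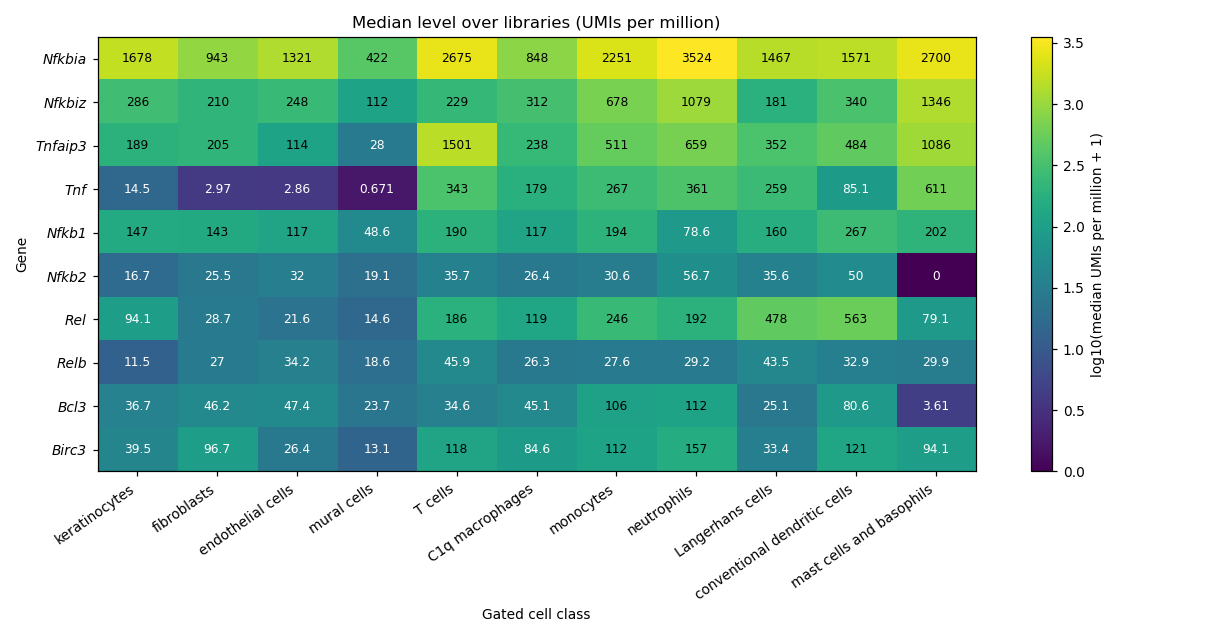
Median level of each gene (genes in rows, cell classes in columns, UPM, colour on a log10 scale) over the libraries of each cell class, with the value printed in the cell. Tnf runs from 611 in mast cells and basophils to 0.671 in mural cells, and mural cells hold the lowest median of 7 genes.

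Each class was then tested against the mean of the others with edgeR's quasi-likelihood test over 57 class-by-library sums, with the library as a block and Benjamini-Hochberg adjustment over 13248 genes. Of the 110 gene-by-class pairs, 69 passed an adjusted p of 0.05 and 77 an unadjusted one. In mural cells all 10 genes were lower, where 19.4% of all genes tested were called lower and 57.2% were called in either direction. Their median log2 difference was -1.92 against 0.20 for all genes, with Tnf at -6.69 (SE 0.55), Tnfaip3 at -3.75 (SE 0.34), Rel at -3.22 (SE 0.32), Birc3 at -2.50 (SE 0.29) and Nfkbia at -2.17 (SE 0.28). The smallest differences there were those of Nfkb2 (-0.59, SE 0.24) and Relb (-0.94, SE 0.19). Without library 1 of IMQ the value of Nfkb2 turned to 0.055 and its call was lost, so that the count was 9, and over all alternatives this call was lost under 7 of 12. The mean of the others includes mast cells and basophils, where Nfkb2 had a median of 0 UPM.

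Neutrophils were the opposite case. Of the 10 genes 9 were higher there, where 21.5% of all genes were called higher and 42.3% in either direction, with a median log2 difference of 2.33 against -0.48 for all genes. Tnf differed by 4.37 (SE 0.30), Nfkbiz by 2.85 (SE 0.31), Bcl3 by 2.69 (SE 0.25), Nfkb2 by 2.37 (SE 0.24) and Birc3 by 2.36 (SE 0.28). Nfkb1 was the exception, with 0.21 (SE 0.24, adjusted p = 0.577 by edgeR). The differences include edgeR's trimmed-mean scaling (TMM), and the class fit was not repeated on plain UMI totals. In median UPM, Relb in neutrophils had rank 6 of 11 classes (29.2 UPM) and Nfkb1 rank 10 (78.6 UPM). S100a8 and S100a9 summed to between 224972 and 276592 UPM in neutrophils, and their part in the scaling was not tested. All neutrophil values rest on 3 libraries, all of treated skin, since the Sham libraries held 1 and 6 neutrophils.

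The other myeloid classes and T cells were raised in part of the set. In monocytes 8 of 10 genes were called, all higher (30.7% of genes in either direction), led by Tnf at 2.69 (SE 0.25), Bcl3 at 1.44 (SE 0.20) and Rel at 1.28 (SE 0.22), while Nfkbia at 0.52 (SE 0.22, adjusted p = 0.0686 by edgeR) and Relb at 0.09 (SE 0.19) did not pass. Of the 7 genes called in T cells (43.1% of genes), 6 were higher, led by Tnf at 2.48 (SE 0.24) and Tnfaip3 at 2.30 (SE 0.20), and Nfkbiz was lower at -0.996 (SE 0.30). The call of Nfkb2 in T cells was lost under 8 of 12 alternatives. Langerhans cells had 6 calls (32.7% of genes), of which Tnf (2.87, SE 0.25), Rel (2.60, SE 0.21), Relb (0.91, SE 0.18) and Nfkb2 (0.69, SE 0.21) were higher and Nfkbiz (-0.78, SE 0.30) and Bcl3 (-0.70, SE 0.27) lower. Conventional dendritic cells had 4 higher calls (15.5% of genes), Rel (2.07, SE 0.35), Bcl3 (1.28, SE 0.33), Nfkb2 (0.99, SE 0.31) and Nfkb1 (0.77, SE 0.26). They rest on 2 libraries, both of Sham, and the call of Nfkb1 was lost under 8 of 12 alternatives (adjusted p up to 0.812 by edgeR) and that of Nfkb2 under 4. C1q macrophages had 2 (24.9% of genes), Tnf higher at 1.82 (SE 0.28) and Nfkbia lower at -1.08 (SE 0.25). Mast cells and basophils had 6 (15.8% of genes), with Tnf, Nfkbiz, Tnfaip3 and Nfkbia higher and Nfkb2 and Bcl3 lower. The call of Nfkbia was lost under 7 of 12 alternatives. The lower calls rest on medians of 0 UPM for Nfkb2 (0 to 7.22) and 3.61 UPM for Bcl3 (0 to 13.7). Such levels are at or near a count of 0, which allows up to 3 UMIs. A list of 16 genes induced by tissue digestion, such as Fos and Jun, summed to between 46758 and 120084 UPM in this class against 7664 to 45936 UPM in the others, and its part in these values was not tested.

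In the structural classes nearly all calls were lower ones. Endothelial cells had 7 (46.9% of genes), among them Tnf at -5.27 (SE 0.51), Rel at -2.87 (SE 0.31) and Tnfaip3 at -1.81 (SE 0.28). Fibroblasts had 6 (57% of genes), with Tnf at -4.71 (SE 0.40) and Rel at -2.31 (SE 0.27) lower and Birc3 at 0.47 (SE 0.20) as the single higher call, which was lost under 8 of 12 alternatives (0.25 to 0.60, adjusted p up to 0.349 by edgeR). Keratinocytes had 4 (58.6% of genes), all lower, Tnf at -1.88 (SE 0.33), Relb at -1.09 (SE 0.17), Birc3 at -0.65 (SE 0.22) and Nfkb2 at -0.54 (SE 0.23), and the call of Nfkb2 was lost under 8 of 12 alternatives, turning to 0.27 without library 1 of IMQ.

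IMQ was set against Sham first, as cream-treated against untreated skin. No vehicle cream was among the groups, so imiquimod cannot be told apart from the cream base or the shaving. In keratinocytes the levels of Tnf, Bcl3 and Birc3 rose, while none of the subunits and neither of the classical brakes, Nfkbia and Tnfaip3, passed the test. Tnf in keratinocytes was 5.59 and 7.31 UPM in Sham, 17.6 and 13.5 UPM in IMQ, and 15.4 and 17.9 UPM in IMQ+SHP099, from 178 to 2259 UMIs per library. The libraries of both treated groups lay above both Sham libraries, and those of the treated groups overlapped each other. IMQ against Sham had a log2 fold change of 1.58 (SE 0.26, adjusted p = 0.00776 by edgeR's quasi-likelihood test).

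Bcl3 in keratinocytes was 18.1 and 26.1 UPM in Sham, 38.9 and 43.2 UPM in IMQ, and 34.5 and 51.0 UPM in IMQ+SHP099. Again no treated library reached down to Sham. Set against Sham, IMQ had a log2 fold change of 1.21 (SE 0.23, adjusted p = 0.0127 by edgeR). Birc3 was 15.5 and 35.1 UPM in Sham, 45.0 and 47.8 UPM in IMQ, and 30.4 and 44.0 UPM in IMQ+SHP099. Its IMQ libraries lay above Sham, but library 1 of IMQ+SHP099 lay below Sham 2. This was a log2 fold change of 1.24 (SE 0.29, adjusted p = 0.0277 by edgeR).

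These were 3 of 10 genes called in keratinocytes, all higher, where 13.6% of 14280 genes were called in IMQ against Sham and 5.53% of the 14280 were called higher. The median log2 fold change of the 10 was 0.30 against -0.09 for all genes. The keratinocytes of the IMQ libraries lay apart from Sham in 7 of the 10 genes, higher in 3 and lower in Tnfaip3, Nfkb2, Rel and Relb on the UPM scale. Of all genes tested 17.7% had both IMQ libraries above both of Sham and 43.8% had both below, so these counts are not far from those of genes at large. Relb, 25.0 and 18.2 UPM in Sham, was 7.90 and 11.4 UPM in IMQ, a log2 fold change of -0.94 (SE 0.37) that did not pass (adjusted p = 0.129 by edgeR). Tnfaip3, at 279 and 265 UPM in Sham and 171 and 145 UPM in IMQ, had -0.51 (SE 0.31, adjusted p = 0.294 by edgeR). Nfkbia was 2049 and 1221 UPM in Sham and 1614 and 1538 UPM in IMQ, the IMQ libraries lying between those of Sham.

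**Figure D2:**
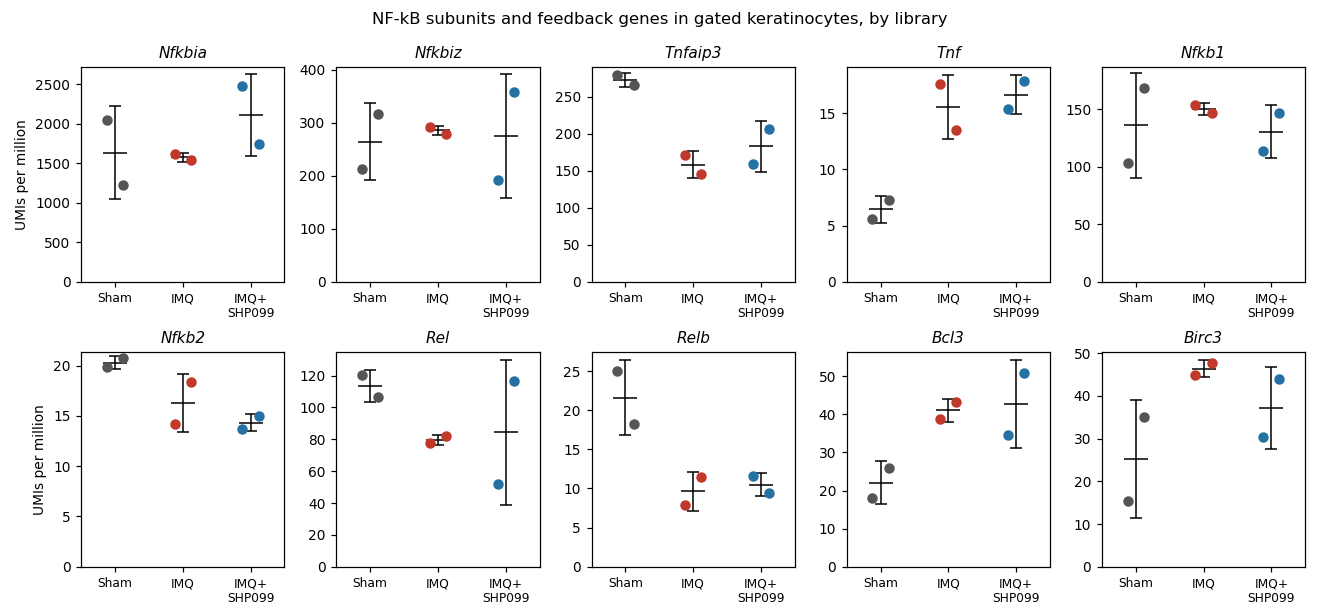
Level of each of the 10 genes in keratinocytes (UPM, 1 panel per gene, 1 point per library, bars for the mean ± SD of 2 libraries) in Sham, IMQ and IMQ+SHP099. The points of both IMQ libraries lie above both Sham points for Tnf, Bcl3 and Birc3 and below them for Tnfaip3, Nfkb2, Rel and Relb.

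The scale of these changes depends on how the libraries are set against each other. TMM, the trimmed-mean scaling of edgeR, used factors whose means differed by 0.29 on the log2 scale between IMQ and Sham in keratinocytes. On plain totals Tnf rose by 1.27 (adjusted p = 0.0416 by edgeR), Bcl3 had 0.89 (adjusted p = 0.0979 by edgeR) and Birc3 had 0.88 (adjusted p = 0.178 by edgeR). The calls of Bcl3 and Birc3 were thus lost on plain totals, while DESeq2, with a scaling of its own, kept both. The depth of the cells moved with the treatment too, since the median keratinocyte had 9923 and 15175 UMIs in Sham and 21789 to 34887.5 in the treated libraries.

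Shares of cells were therefore read after each cell with at least 2000 UMIs was thinned to 2000. Cells with fewer UMIs were left out, so a thinned share is one of the cells kept. Tnf was found in 3.77% and 4.46% of keratinocytes in Sham and in 14.9% to 21.6% in the treated libraries, and after thinning in 0.723% and 1.14% in the Sham libraries, 2.60% and 1.92% in those of IMQ, and 2.27% and 3.64% in those of IMQ+SHP099. Every treated library stayed above both Sham libraries. In fibroblasts, which had 5164 to 9194.5 UMIs in the median cell, 0.509% to 2.07% of cells held a Tnf UMI and 0.109% to 0.694% after thinning, so the thinned share of Sham 1 was close to the top of that range. Thinned shares of Bcl3 were 3.29% and 5.24% in Sham against 6.33% to 8.68% in the treated libraries, and those of Birc3 were 3.06% and 5.86% against 6.26% to 10.4%. Exact Clopper-Pearson 95% intervals of the unthinned share of Tnf in Sham 1 ran from 3.31% to 4.28%, and such intervals cover counting error only. With 2 libraries against 2, the exact two-sided permutation test of a share cannot give a p under 0.333.

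**Figure D3:**
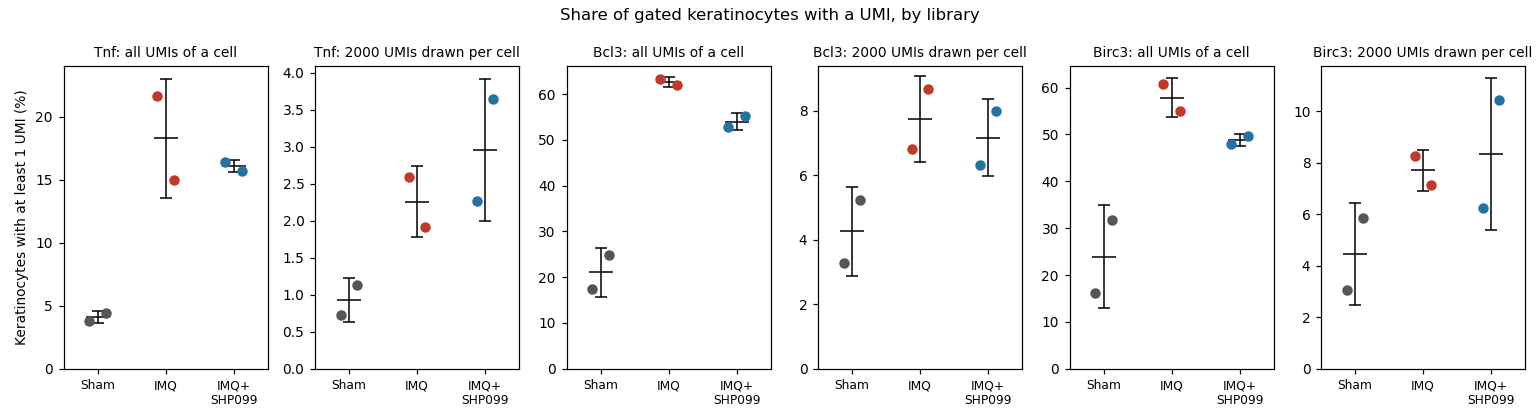
Share of keratinocytes with at least 1 UMI of Tnf, Bcl3 or Birc3 (%, 1 point per library) in the 3 groups, over all UMIs and after each cell with at least 2000 UMIs was thinned to 2000. Shares in treated libraries lie above both Sham libraries in every panel, and the gap for Tnf shrinks from 14.2 to 1.33 percentage points between IMQ and Sham after thinning.

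Differentiation state was looked at next by splitting keratinocytes by their keratins, a split made after the data were seen. On the suprabasal side, with more Krt1, Krt10 and Krtdap than Krt5, Krt14 and Krt15, Tnf was 1.08 and 3.38 UPM in Sham (30 and 38 UMIs), 17.3 and 17.2 UPM in IMQ, and 28.9 and 23.6 UPM in IMQ+SHP099. All treated libraries were above Sham, and those of IMQ+SHP099 above those of IMQ. IMQ thus had a log2 fold change of 3.43 (SE 0.43, adjusted p = 0.00105 by edgeR), with 16.8% of genes called. On the basal side Tnf was 7.80 and 9.58 UPM in Sham and 17.7 and 11.2 UPM in IMQ, with 1.01 (adjusted p = 0.0788 by edgeR, 11.6% of genes called). Birc3 had 1.85 on the suprabasal side (adjusted p = 0.00954 by edgeR) and 0.82 on the basal side (adjusted p = 0.0742 by edgeR). Bcl3 rose by about the same amount on both, 1.27 and 1.16 (adjusted p = 0.0104 and 0.0197 by edgeR). The difference between the sides was not tested.

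Tnf is a gene of immune cells above all, so their markers were read in the keratinocyte gate. All 10 markers of the T cell list had UMIs there in 5 of 6 libraries and 9 in the remaining one, and their summed level was 159 and 118 UPM in Sham, 131 and 110 UPM in IMQ and 136 and 86.8 UPM in IMQ+SHP099. The sum of the Langerhans list was 452 and 255 UPM in Sham against 156 to 219 UPM in the treated libraries, and that of the neutrophil list 281 and 116 UPM against 17.6 to 39.2 UPM. The sums of these lists were not higher with treatment, and those of the monocyte, macrophage and mast cell lists are not given here. The neutrophil list was highest in Sham, where few neutrophils were gated, so such a sum does not measure immune cells alone. The part of immune cells in the Tnf values was not tested. After cells with any UMI of 13 immune marker genes were left out, a step added after the data were seen, Tnf was 2.15 and 4.86 UPM in Sham (77 and 71 UMIs), 8.50 and 11.4 UPM in IMQ, and 14.1 and 21.8 UPM in IMQ+SHP099. All treated libraries again lay above Sham. A deeper cell is more likely to hold a UMI of these markers, and treated keratinocytes were deeper. The step therefore left out unlike parts of the groups, and the cells kept are not matched. The log2 fold change of IMQ was 1.78 (adjusted p = 0.0196 by edgeR, 9.82% of genes called), that of Bcl3 1.16 (adjusted p = 0.0260 by edgeR) and that of Birc3 1.14 (adjusted p = 0.0394 by edgeR). The summed level of the 16 digestion-induced genes also moved in keratinocytes, from 18746 and 17816 UPM in Sham to between 11681 and 13482 UPM in the treated libraries, and its part in these results was not tested.

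In no other class did a gene of the set pass the test for IMQ against Sham. Over 10 classes, the myeloid cells as a whole being one of them, 3 of 92 gene-by-class pairs were called, 16 had an unadjusted p under 0.05, and DESeq2 called 4 (12 unadjusted), the additional one being Nfkbiz in mural cells. Nfkbiz in mural cells was 306 and 288 UPM in Sham and 103 and 121 UPM in IMQ, and the groups lay far apart. On the log2 scale the change was -1.21 (SE 0.27, adjusted p = 0.0641 by edgeR, with 1.14% of genes called in mural cells). In mural cells 6 of the 10 genes had both IMQ libraries below both Sham libraries and none had both above, beside 35.8% and 16.3% of all genes tested.

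Among myeloid cells, Nfkbia in monocytes was 894 and 1285 UPM in Sham and 2831 and 2091 UPM in IMQ. Both IMQ libraries were higher, with a log2 fold change of 1.35 (SE 0.36, adjusted p = 0.0648 by edgeR, 2.88% of genes called in monocytes). Tnf in monocytes was 109 and 238 UPM in Sham against 482 and 296 UPM in IMQ, again without overlap, with 1.27 (SE 0.49, adjusted p = 0.239 by edgeR). In Langerhans cells Nfkbiz was 35.2 and 203 UPM in Sham and 348 and 158 UPM in IMQ, which overlapped, with 1.37 (SE 0.57, adjusted p = 0.294 by edgeR, 2.28% of genes called). In C1q macrophages, the resident dermal population, all 9 genes tested had negative log2 fold changes, the smallest adjusted p being 0.427 for Rel (-1.09, SE 0.45, 0.418% of genes called). Over all myeloid cells the smallest adjusted p was 0.356, for Nfkbia at 0.99 (SE 0.35), with 0.0188% of genes called.

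In endothelial cells Tnfaip3 had 65.5 and 84.9 UPM in Sham and 195 and 136 UPM in IMQ. The libraries did not overlap, and the log2 fold change was 1.21 (SE 0.38, adjusted p = 0.225 by edgeR, 0.162% of genes called). In fibroblasts the 10 genes had log2 fold changes from -0.18 (Tnf) to 0.61 (Nfkbiz), with a smallest adjusted p of 0.661 (0.577% of genes called). In T cells Tnf had 1.22 (SE 0.62) and Nfkbia 1.01 (SE 0.51), with a smallest adjusted p of 0.424 (0.0117% of genes called). Of the 5 genes that could be tested in mast cells and basophils, Nfkb1 came closest, at -1.48 (SE 0.50, adjusted p = 0.136 by edgeR, 0% of genes called).

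**Figure D4:**
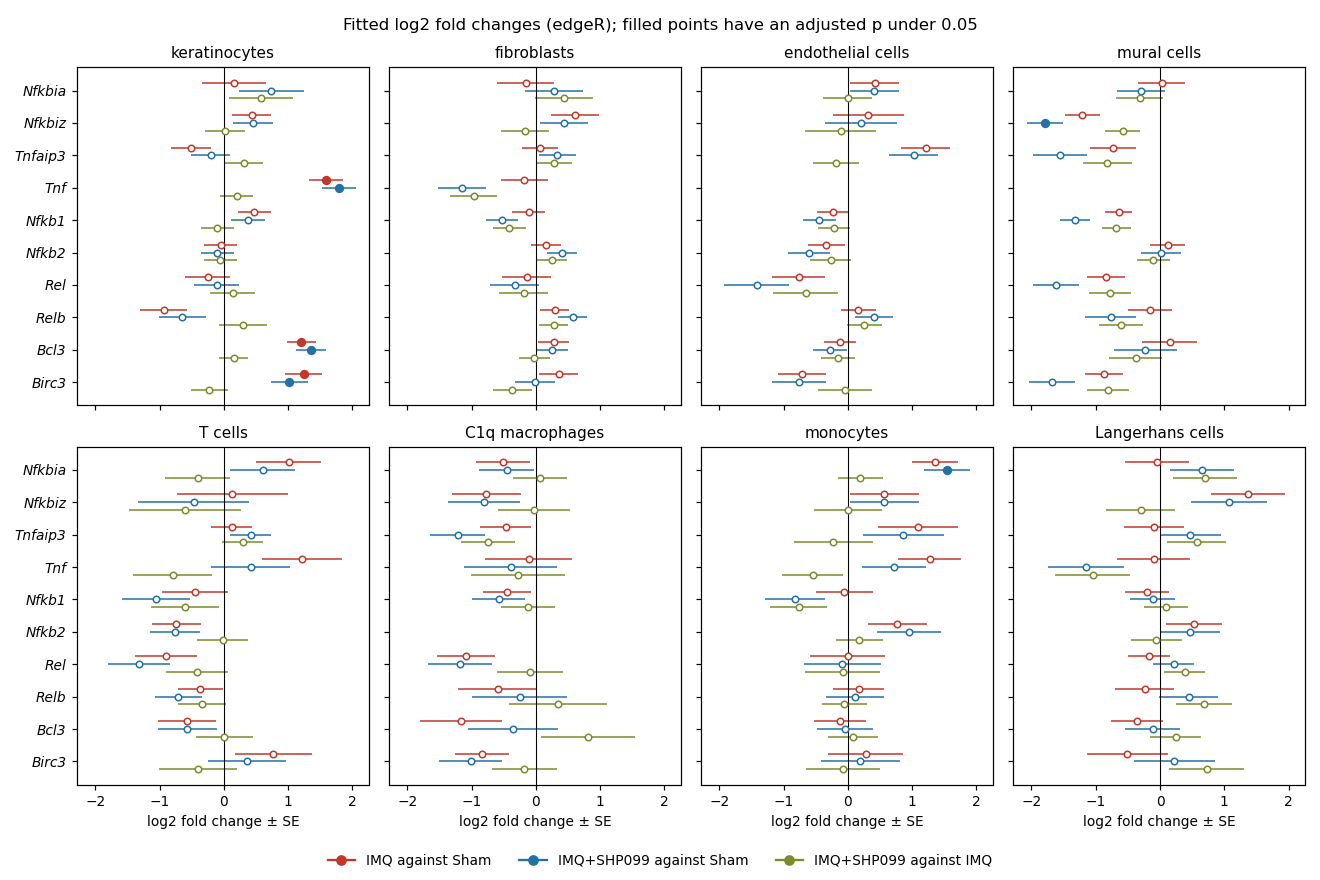
Log2 fold change (x axis, bars ± SE) of each gene in 8 cell classes, for IMQ against Sham (red), IMQ+SHP099 against Sham (blue) and IMQ+SHP099 against IMQ (olive), filled where the adjusted p was under 0.05. Filled points are those of Tnf, Bcl3 and Birc3 in keratinocytes against Sham, and of Nfkbiz in mural cells and Nfkbia in monocytes for IMQ+SHP099 against Sham.

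Setting IMQ+SHP099 against IMQ addresses the effect of the SHP2 inhibitor in imiquimod-treated skin. By edgeR, 0 of 87 gene-by-class pairs passed, 4 had an unadjusted p under 0.05, and DESeq2 called 0 (1 unadjusted). No gene of any kind was called in any of the 9 classes fitted (0% of genes), so the count of the set is that of the background. In keratinocytes Tnf had a log2 fold change of 0.20 (SE 0.26), Bcl3 of 0.15 (SE 0.22) and Birc3 of -0.22 (SE 0.28). In monocytes Tnf had -0.55 (SE 0.48), Nfkbia 0.19 (SE 0.35), Nfkb1 -0.77 (SE 0.45) and Tnfaip3 -0.23 (SE 0.61). Errors of this size leave room for changes in either direction, and a missed threshold does not show that the groups were alike.

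The unadjusted values lay in mural cells and fibroblasts. Mural Nfkb1 was 52.6 and 44.6 UPM in IMQ and 28.9 and 29.3 UPM in IMQ+SHP099, against 83.9 and 90.5 UPM in Sham. The libraries of the 3 groups did not overlap. The log2 fold change of IMQ+SHP099 against IMQ was -0.68 (SE 0.22, unadjusted p = 0.0126 and adjusted p = 1 by edgeR). Birc3 had -0.81 (SE 0.33) and Rel -0.78 (SE 0.33) in mural cells, and all 9 genes tested there were negative, with a median of -0.61 against 0.00 for all genes. Tnf in fibroblasts was 3.04 and 3.39 UPM in IMQ and 1.46 and 1.63 UPM in IMQ+SHP099, a log2 fold change of -0.97 (SE 0.37, unadjusted p = 0.0325 by edgeR) at a level of 10 to 74 cells with a UMI per library.

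The third comparison, IMQ+SHP099 against Sham, uses the same Sham libraries as the first and is no independent repeat of it. Of 87 pairs 5 were called (17 unadjusted), and DESeq2 also called 5 (15 unadjusted). In keratinocytes (14.1% of genes called) Tnf rose by 1.79 (SE 0.27, adjusted p = 0.00557), Bcl3 by 1.36 (SE 0.23, adjusted p = 0.00903) and Birc3 by 1.02 (SE 0.29, adjusted p = 0.0498), all on the log2 scale by edgeR. On plain totals Tnf kept its call at 1.37 (adjusted p = 0.0327 by edgeR), Bcl3 had 0.95 (adjusted p = 0.0759 by edgeR) and Birc3 had 0.56 (adjusted p = 0.348 by edgeR). In the other classes outside mural cells and monocytes none passed, with 0.372% of genes called in C1q macrophages, 0.071% in endothelial cells, 0.19% in fibroblasts, 0.035% in T cells and 0% in all myeloid cells. The call of Birc3 in keratinocytes was lost under 10 of 17 alternatives, among them every choice that left out Sham 1 or a library of IMQ+SHP099. Without cells holding immune marker UMIs, a step that depends on the depth of a cell, Tnf rose by 2.78 (adjusted p = 0.00339 by edgeR, 9.25% of genes called).

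The fourth call was a lower level of Nfkbiz in mural cells. Its level was 306 UPM (146 UMIs) and 288 UPM (445 UMIs) in Sham, 103 UPM (539 UMIs) and 121 UPM (940 UMIs) in IMQ, and 53.1 UPM (33 UMIs) and 85.5 UPM (406 UMIs) in IMQ+SHP099. The 3 groups did not overlap, with Sham highest. Against Sham the log2 fold change of IMQ+SHP099 was -1.79 (SE 0.28, adjusted p = 0.0340 by edgeR, 0.469% of genes called). After thinning to 2000 UMIs, Sham libraries had Nfkbiz UMIs in 33.3% and 30.2% of the mural cells kept, IMQ libraries in 13.5% and 16.7%, and IMQ+SHP099 libraries in 7.84% and 12.9%. Mural cells with more Rgs5 than Myh11, on the side of pericytes, had 400 and 482 UPM in Sham and 145, 89.2, 71.3 and 89.3 UPM in the treated libraries, a log2 fold change of -2.21 for IMQ+SHP099 (adjusted p = 0.00653 by edgeR, 0.473% of genes called). The Myh11 side, on that of smooth muscle, had -1.67 (adjusted p = 0.0553 by edgeR, 0.514% of genes called), and the difference between the sides was not tested.

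Other genes of the set moved the same way in mural cells without passing. Nfkb1 had -1.32 (SE 0.24, adjusted p = 0.0528 by edgeR), Birc3 -1.68 (SE 0.36, adjusted p = 0.0750 by edgeR), Rel -1.62 (SE 0.36, adjusted p = 0.0762 by edgeR) and Tnfaip3 -1.55 (SE 0.42, adjusted p = 0.116 by edgeR). The median over the 9 genes tested was -1.32 against 0.00 for all genes, while Nfkb2 had 0.01 (SE 0.31) and Bcl3 -0.23 (SE 0.49). The mean TMM factors of these groups differed by 0.24 on the log2 scale. On plain totals Nfkb1 (-1.59, adjusted p = 0.0186 by edgeR), Tnfaip3 (-1.81, adjusted p = 0.0475 by edgeR), Birc3 (-1.98, adjusted p = 0.0382 by edgeR) and Rel (-1.90, adjusted p = 0.0407 by edgeR) passed as well. The digestion-induced genes summed to 27305 and 15782 UPM in mural cells of Sham, 11584 and 11538 UPM in IMQ, and 12317 and 9602 UPM in IMQ+SHP099, so they too were highest in Sham. Of the markers of other cells, the monocyte list summed to 107 and 62.1 UPM in mural cells of Sham (2 and 6 of its 8 genes with a UMI) and to between 7.16 and 24.3 UPM in the treated libraries. The part of either in the mural values was not tested.

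The fifth call was a rise of Nfkbia in monocytes, to 3251 UPM (304 UMIs) and 2410 UPM (3964 UMIs) in IMQ+SHP099 from 894 UPM (90 UMIs) and 1285 UPM (947 UMIs) in Sham. Both treated libraries were higher. The log2 fold change was 1.54 (SE 0.36, adjusted p = 0.0450 by edgeR, 2.28% of genes called), and the call was lost under 7 of 13 alternatives, without either library of IMQ+SHP099 and under DESeq2 (adjusted p = 0.104) among them. The gate held 12 and 100 monocytes in Sham and 20 and 284 in IMQ+SHP099. Its make-up differed between groups, since the monocyte list summed to 3527 and 4210 UPM in Sham and 10299 to 13725 UPM in the treated libraries, whereas the list of conventional dendritic cells summed to 954 and 1169 UPM in Sham and 32.1 to 101 UPM in the treated libraries. Whether this carried the change in Nfkbia was not tested. Digestion-induced genes overlapped there, at 17159 and 22985 UPM in Sham and 17622 to 24135 UPM in the treated libraries.

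**Figure D5:**
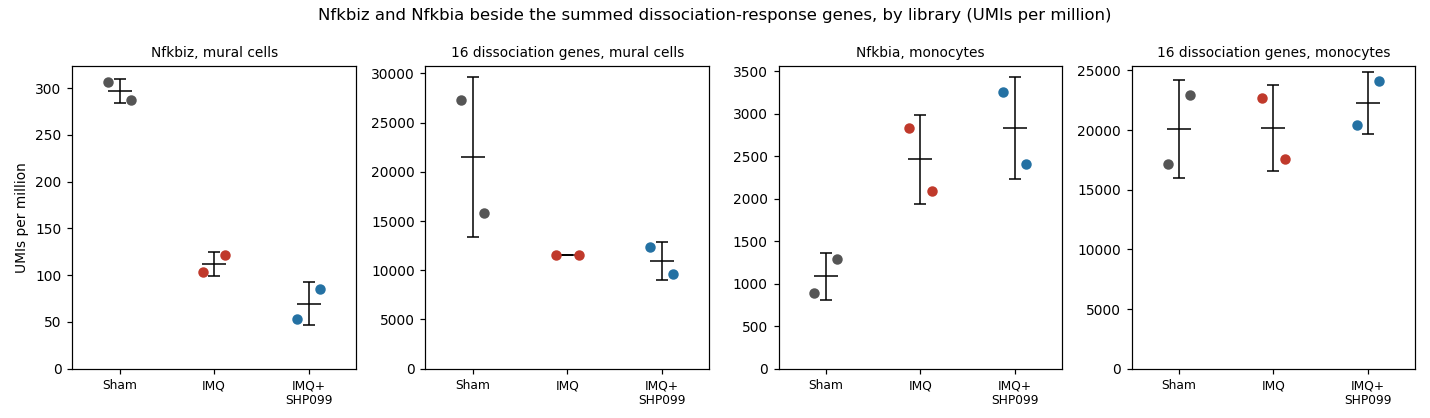
Nfkbiz in mural cells and Nfkbia in monocytes (UPM, 1 point per library) beside the summed level of 16 digestion-induced genes in the same cells. Nfkbiz falls from 306 and 288 in Sham to between 53.1 and 121 in the treated libraries, and the digestion-induced genes of mural cells are likewise highest in both Sham libraries.

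Whether IMQ moved a gene by a different amount in keratinocytes than in fibroblasts was tested directly, by limma on the difference of log2 levels within each library. None of the 10 genes passed, 4 had an unadjusted p under 0.05, and 3.05% of 14213 genes were called. Tnf came closest, the change in keratinocytes exceeding that in fibroblasts by 1.76 on the log2 scale (SE 0.31, unadjusted p = 0.00199 and adjusted p = 0.0545 by limma). Bcl3 exceeded it by 0.98 (SE 0.25, adjusted p = 0.0976 by limma) and Birc3 by 0.95 (SE 0.27, adjusted p = 0.113 by limma), and Relb moved the other way, by -1.11 (SE 0.35, adjusted p = 0.131 by limma). With the variance allowed to follow the mean level, a choice made after the first fit was seen, Tnf passed (adjusted p = 0.0397 by limma, 4.58% of genes called).

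The wider pathway was read from 55 further genes, grouped as receptors, adaptors, kinases with Rela, other IkB proteins and brakes, and other target genes. In keratinocytes 52 of them were tested for IMQ against Sham, of which 6 were higher and 4 lower (16 unadjusted), beside the 13.6% of all genes called. Of 18 target genes tested, 4 rose, led by the chemokine genes Ccl20 (3.87), Cxcl1 (3.70) and Cxcl2 (3.05) on the log2 scale, and Sod2, the mitochondrial superoxide dismutase, was the remaining one. Of 10 adaptors, Tradd (1.09) and Myd88 (0.91), the adaptors of TNF and Toll-like receptors, rose. Of 11 brakes, Tnip3 (-2.63), Birc2 (-1.67), the close relative of Birc3, and the deubiquitinase Cyld (-1.10) fell, and of 6 receptors the IL-1 receptor gene Il1r1 (-0.95) fell. None of the 7 kinase genes passed.

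For IMQ+SHP099 against Sham, 5 of the 52 were higher and 3 lower in keratinocytes, with Ccl20 at 4.73, Cxcl1 at 4.44 and Cxcl2 at 3.88 among the targets. In Langerhans cells 4 of 48 were higher and 2 lower for IMQ against Sham, with the target genes Il1b (3.96), Ltb (2.96) and Bcl2a1d (2.12) and the adaptor Myd88 (2.12) higher and the brakes Birc2 (-1.73) and N4bp1 (-1.49) lower, beside 2.28% of all genes. For IMQ+SHP099 against Sham, Il1b (4.99), Ltb (2.70) and Bcl2a1d (2.40) were higher in Langerhans cells (2.03% of genes called). In monocytes Sod2 alone of 50 passed, at 2.10 for IMQ and 2.20 for IMQ+SHP099 against Sham. Nothing passed among the genes tested in fibroblasts (53), endothelial cells (46), mural cells (42), T cells (43) or C1q macrophages (37) for IMQ against Sham, by edgeR at an adjusted p of 0.05, where 10, 8, 9, 8 and 4 had an unadjusted p under 0.05. IMQ+SHP099 against IMQ gave 0 in every class.

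Genes with the most similar pattern over 53 class-by-library sums were looked up by Pearson's r of log levels among 6346 genes, as a description, since the sums share libraries and depth. Tnf was most like Arhgap9 (r = 0.962), Bin2 (r = 0.952) and Ccdc88b (r = 0.947). Tnfaip3 was most like Rgcc (r = 0.874), Rel most like Malt1 (r = 0.883), Nfkb2 most like Skil (r = 0.874) and Nfkb1 most like Pabpc1 (r = 0.856). Bcl3 was most like Noct (r = 0.816), Nfkbiz most like Zfand5 (r = 0.777) with the digestion-induced gene Dusp1 close behind (r = 0.758), Birc3 most like Limd2 (r = 0.774) and Relb most like Gramd1a (r = 0.756). Nfkbia was the one gene of the set whose nearest gene was another of its members, Tnfaip3 (r = 0.754). Between members the closest pair was Tnf with Rel (r = 0.814), and Nfkb2 paired most closely with Bcl3 (r = 0.686).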

How the data were processed

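Single-cell suspensions of dorsal skin were digested with collagenases and dispase and sequenced as 10x 3′ libraries. The authors made the deposited UMI counts per gene and barcode with Cell Ranger against the mouse genome mm10, and the counts carry no normalization. Barcodes under 100000 UMIs, 6500 genes and 10% mitochondrial UMIs were kept, limits that follow the study's methods. No doublet caller was run. The authors' cell labels were not used here. Instead a cell's score for a class was the mean log2(1 + UMIs per 10000) over its markers, and it entered the class with the highest score if that was at least 1 and every other score was under 0.5 of it, which takes out mixed cells. The myeloid and mast cell scores were exempt from this rule against each other, so cells mixed between these classes were not taken out. Myeloid cells entered the subset with the highest score of at least 1. Depth per library is given in the report.

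UMIs were summed per library and class, and sums of under 10 cells were dropped. edgeR 4.0.16 (R 4.3.3) fitted all 6 libraries per class by the quasi-likelihood method, with TMM, filterByExpr and no term but the group, and Benjamini-Hochberg adjustment over all genes tested. Standard errors (SE) were derived from the F statistic, as the absolute log2 fold change divided by its square root. Class contrasts had the library as a block. limma 3.58.1 tested the difference between keratinocytes and fibroblasts on log2 CPM computed from the deposited counts with a prior count of 2. DESeq2 1.42.0 was an alternative. The scripts used Python 3.11.15, numpy 2.4.6, pandas 2.3.3, scipy 1.17.1 and matplotlib 3.10.9 and were tested on simulated data.

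The members and lists were chosen with earlier results of these data known. The gate limits, mast cells as a class of their own, the splits by keratins, by Rgs5 and by immune markers, the scaling to plain totals and the variance trend were chosen after the data were seen. All members were named. Of the wider pathway, at most 3 genes per list and class were named, those past the threshold with the largest change. Promoters came from RefSeq windows of GRCm38.p6. Replicate numbers were not taken as a pairing, since the labels do not say what a number marks. Same-numbered libraries deviated together in T cells and all myeloid cells, and more weakly in keratinocytes (correlations of 0.109, 0.217 and 0.031). In the remaining classes they did so in part or not at all. The block fit is given as an alternative. Schwann cells, melanocytes, B cells and mature Ccr7 dendritic cells were gated but not compared.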

Additional observations from a re-analysis of the deposited data

Results flagged for a closer look

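Genes called higher in one class had all libraries of the same group on the other side of Sham in another class. None of the differences between classes given here was tested, and no cause is weighed. The list was picked by this rule over all classes, and libraries apart are common among genes at large. In mural cells 35.8% of all genes were lower in this way for IMQ against Sham. For the other classes named here that share was not computed. Ratios are of the mean UPM of the treated group to that of Sham. They lack the TMM scaling of the calls, which adds about 0.18 on the log2 scale in monocytes for IMQ and about 0.13 in Langerhans cells for IMQ+SHP099.

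For IMQ against Sham, Bcl3, which rose in keratinocytes, was lower in both IMQ libraries in T cells (27.2 against 43.5 UPM, ratio 0.626), in C1q macrophages (32.8 against 83.6 UPM, ratio 0.393), in monocytes (92.6 against 115 UPM, ratio 0.804) and in Langerhans cells (22.6 against 29.6 UPM, ratio 0.764). Birc3, also higher in keratinocytes, was lower in mural cells (13.1 against 25.5 UPM, ratio 0.513), in C1q macrophages (69.9 against 125 UPM, ratio 0.559) and in mast cells and basophils (52.2 against 146 UPM, ratio 0.358). Tnf was lower in mast cells and basophils (495 against 932 UPM, ratio 0.531).

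For IMQ+SHP099 against Sham, which shares the Sham libraries, Bcl3 was lower in T cells (25.98 against 43.5 UPM, ratio 0.598), in monocytes (86.2 against 115 UPM, ratio 0.748) and in Langerhans cells (25.1 against 29.6 UPM, ratio 0.848). Birc3 was lower in mural cells (6.90 against 25.5 UPM, ratio 0.270) and in C1q macrophages (60.2 against 125 UPM, ratio 0.481). Tnf was lower in fibroblasts (1.55 against 3.88 UPM, ratio 0.399) and in Langerhans cells (164 against 412 UPM, ratio 0.398). Nfkbia, which rose in monocytes, was lower in C1q macrophages (736 against 1035 UPM, ratio 0.711).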

How the results depend on the processing

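For IMQ against Sham, 3 pairs were called in all classes, 8 with no filter on low counts, and 0 to 15 when a library was left out, with 15 without Sham 2, 0 without IMQ 1 and 1 without IMQ 2. For IMQ+SHP099 against Sham, 5 were called, 10 with no filter, 3 with only the groups compared, 2 with no exclusion of mixed cells, and 1 to 9 when a library was left out, with 8 without Sham 1, 9 without Sham 2, 1 without IMQ+SHP099 1 and 2 without IMQ+SHP099 2. IMQ+SHP099 against IMQ gave 0 under all 14 alternatives. The difference between keratinocytes and fibroblasts gave 0, and 1 with a mitochondrial limit of 5% or with a variance trend. Class contrasts called 69 pairs, 53 to 71 under the alternatives, and of 828 values of these pairs 737 kept their side, 89 lost the call and 2 turned, both without IMQ 1, where Nfkb2 reached 0.27 in keratinocytes (-0.52 to 0.27 when a library was left out) and 0.055 in mural cells (-0.65 to 0.055). For the other classes, the mean they were set against includes mast cells and basophils. Nfkb2 in that class had 0 to 7.22 UPM, and its value ran from -11.4 to -3.20 when a library was left out. The part of that class in these shifts was not tested, nor was any other cause.

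The log2 fold change of IMQ in keratinocytes stayed above 0 under the 17 alternatives of each gene, and its call was lost under 2 of them for Tnf, 3 for Bcl3 and 5 for Birc3. Without IMQ 1 the adjusted p was 0.117 for Tnf, 0.143 for Bcl3 and 0.177 for Birc3, all by edgeR. Nfkbiz in mural cells of IMQ+SHP099 lost its call under 5 of 16, among them without Sham 2 (adjusted p = 0.0725 by edgeR) and with no exclusion of mixed cells (adjusted p = 0.0808 by edgeR). Thinning moved the difference in share of cells from 14.2 to 1.33 percentage points for Tnf, 41.5 to 3.48 for Bcl3 and 33.9 to 3.25 for Birc3 in keratinocytes, and left a difference of -21.4 for Nfkbiz in mural cells.

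Fits with a replicate block called 3 pairs for IMQ against Sham, 5 for IMQ+SHP099 against Sham, 0 between the treated groups and 0 for the difference between keratinocytes and fibroblasts, so no count moved. Deviations of same-numbered libraries correlated across genes at 0.109, 0.217 and 0.031 in keratinocytes, 0.149, 0.401 and 0.157 in T cells and 0.281, 0.363 and 0.293 in all myeloid cells, and each of the other 6 classes had a value under 0.1. The labels do not say what a number marks and it was not read as a pairing. Depth limits Tnf in mural cells, with 0 to 5 UMIs in a library. It also limits Nfkb2 and Bcl3 in mast cells and basophils, with medians of 0 and 3.61 UPM.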
